A study of Mus musculus with 14 samples.

Results

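The transcripts of 10 genes that rise in disease-associated microglia were followed in cultured primary microglia from mice without TIMP2, an extracellular inhibitor of matrix metalloproteinases, and from wild-type (WT) mice. The genes were chosen by name, and each matched 1 row among the 49315 genes of the count table: Apoe, Lpl, Igf1, Spp1, Clec7a, Gpnmb, Cd9, Cd63, Cst7 and Lgals3. All 10 passed the filter on low counts, which left 15700 genes for testing. There were 14 libraries of bulk RNA, 7 from TIMP2 knockout (KO) and 7 from WT microglia, and each library came from the pooled forebrains of 5 C57BL/6 pups of both sexes at postnatal day 6 to 7. The cells were selected with CD11b microbeads and cultured before collection, in both genotypes alike. The knockout was constitutive and in every cell type, so that neurons, astrocytes and other cells of the KO pups also lacked TIMP2 before the microglia were isolated. Nothing in the labels says which pools shared a litter or a day, and p-values below measure the spread between these pools.

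Disease-associated microglia are cells that gather around amyloid plaques, dying neurons and damaged myelin. They switch on genes of lipid handling, lysosomes and phagocytosis, in part through the receptor TREM2, and lower the genes that mark resting microglia. Much of the same set is also active in the early postnatal brain, in microglia near developing white matter, and in microglia kept in culture. The early loss of TIMP2 was studied here with respect to microglial state, and the comparison of KO with WT asked whether these transcripts differed between the genotypes.

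Depth was 38875344 to 45623039 counted reads in the KO libraries and 41538291 to 48070236 in WT (exact permutation p = 0.0519). Timp2 was at 119.6 to 129 CPM (counts scaled to library size) in KO and 398 to 495 CPM in WT, a log2 fold change of -1.92 ± 0.0464 (SE, n = 7 per genotype, adjusted p = 1.53e-12, edgeR quasi-likelihood test), so that the ranges did not overlap and no library was at 0. Of 13 microglial markers, Csf1r and C1qc were at 1766 CPM or more in each library, whereas Tmem119 was at 1.84 to 6.27 CPM, and 12 of the 13 were higher in KO (median log2 fold change 0.07). Markers of astrocytes summed to 41.7 to 199.7 CPM in KO and to 49.2 to 384 CPM in WT, and all 13 tested markers were lower in KO (median log2 fold change -0.68), though edgeR and DESeq2 called 0 of them, 1 (S100b) had an unadjusted p under 0.05, and the sums did not differ beyond their spread (exact permutation p = 0.254). Markers of neurons (10 of 10 tested, median -0.37), oligodendrocytes (7 of 9, median -0.33) and vascular and mesenchymal cells (7 of 9, median -0.25) were also mostly lower in KO, and those of border macrophages (6 of 9, median 0.08) and blood myeloid cells (3 of 3, median 0.91) mostly higher. In these 5 lists and the microglial one, edgeR and DESeq2 called 0 genes, 0 had an unadjusted p under 0.05 in edgeR, and the sums did not differ beyond their spread (exact permutation p of 0.188 or more). Their part in the results below was not tested beyond the relations given there. Ntsr2, the other astrocyte marker listed, averaged 0.125 CPM in KO and 0.156 CPM in WT. Of the 8 blood myeloid markers listed, 5 averaged under 1 CPM. Together the 8 summed to only 4.47 to 21.9 CPM in KO and 2.61 to 14.6 CPM in WT. S100a8, whose estimate was the median of that list, was at 2.16 ± 2.10 CPM in KO and 1.14 ± 1.46 CPM in WT (SD, n = 7).

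Promoter sequences from RefSeq (GRCm38.p6) were matched for 9 of the 10 genes. The 250 bases before the transcription start are shown for the 5 genes whose levels rose and fell together most closely across libraries (below), each read 5′ to 3′ on the strand of its gene. Capitals mark matches, on either strand, to GAGGAA, a core bound by the myeloid factor PU.1, or to TGANTCA, a site of AP-1. The windows are chr6:49036268-49036517 (+) for Gpnmb, chr10:128909095-128909344 (+) for Cd63, chr14:47373610-47373859 (+) for Lgals3, chr6:129472780-129473029 (-) for Clec7a and chr10:87860861-87861110 (+) for Igf1. The RefSeq start lay 28 bases from the first base of the gene in GENCODE for Gpnmb and 0 bases for Clec7a, but 8356 bases for Cd63, 6109 bases for Lgals3 and 2846 bases for Igf1, where the gene in GENCODE begins upstream of it.
Gpnmb: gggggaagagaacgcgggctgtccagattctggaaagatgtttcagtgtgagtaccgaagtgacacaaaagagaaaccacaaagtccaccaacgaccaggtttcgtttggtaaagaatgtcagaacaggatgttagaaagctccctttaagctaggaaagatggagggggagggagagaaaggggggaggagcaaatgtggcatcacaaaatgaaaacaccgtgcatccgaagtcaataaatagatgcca
Cd63: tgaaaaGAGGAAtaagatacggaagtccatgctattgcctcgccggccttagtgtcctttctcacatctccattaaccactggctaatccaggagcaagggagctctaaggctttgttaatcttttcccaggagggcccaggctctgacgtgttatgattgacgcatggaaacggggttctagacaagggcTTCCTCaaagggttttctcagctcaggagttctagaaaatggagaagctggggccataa
Lgals3: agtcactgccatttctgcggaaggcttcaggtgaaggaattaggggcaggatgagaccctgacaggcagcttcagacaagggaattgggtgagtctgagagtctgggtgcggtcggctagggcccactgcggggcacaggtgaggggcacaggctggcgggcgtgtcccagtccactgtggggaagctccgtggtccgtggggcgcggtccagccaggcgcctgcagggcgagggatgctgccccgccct
Clec7a: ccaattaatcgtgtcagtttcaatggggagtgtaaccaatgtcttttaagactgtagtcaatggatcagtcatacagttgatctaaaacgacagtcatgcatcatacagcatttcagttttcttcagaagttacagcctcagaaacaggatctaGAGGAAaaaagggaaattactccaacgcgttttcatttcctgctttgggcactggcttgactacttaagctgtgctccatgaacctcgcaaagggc
Igf1: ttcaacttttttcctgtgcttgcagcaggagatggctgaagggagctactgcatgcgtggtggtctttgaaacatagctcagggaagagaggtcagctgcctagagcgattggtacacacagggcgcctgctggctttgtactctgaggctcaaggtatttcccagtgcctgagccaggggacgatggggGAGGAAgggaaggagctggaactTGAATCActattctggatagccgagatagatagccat

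In these windows GAGGAA was present for 5 of 9 genes (Apoe, Spp1, Clec7a, Cd63 and Igf1), against 23.3% of all 32851 promoters of the same length. TGANTCA was present for 1 of 9, Igf1, against 6.75% of all promoters. The letters CATGTG, an E-box variant bound by factors of the MITF and TFE family, were found for Cd9 alone, against 12.3% of all promoters. CACGTG, the palindromic E-box of the same family, was found in 0 of 9 windows, against 6.02% of all promoters. Gpnmb and Lgals3 held none of the 4 motifs, and a match is only a description of letters.

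Per length of exon, Apoe was by far the most abundant of the 10 transcripts and Cst7 the least. Apoe, the main lipid carrier secreted by glia, averaged 5163 ± 664 CPM per kb over the 14 libraries (SD) and ranked 3 of all tested genes. Spp1, which encodes the secreted protein osteopontin, followed at 847 ± 268 CPM per kb, a rank of 33. Lpl, Lgals3 and Gpnmb lay between 589 and 408 CPM per kb, and Cd9, Cd63, Clec7a and Igf1 between 302 and 147 CPM per kb. Cst7, which encodes cystatin F, an inhibitor of lysosomal cysteine proteases, was at 1.44 ± 0.303 CPM per kb, higher than only 36.6% of tested genes, and rested on 43 to 87 counts per library. Neighbours in this order had ranges without overlap only between Apoe and Spp1, between Clec7a and Igf1, and between Igf1 and Cst7. Lpl and Lgals3 were the closest pair, with a ratio of 1.08 between their means and Lpl higher in 9 of 14 libraries. Together the 10 genes took up 2.15 to 2.99% of all counted reads in KO and 2.36 to 2.80% in WT.

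**Figure D1:**
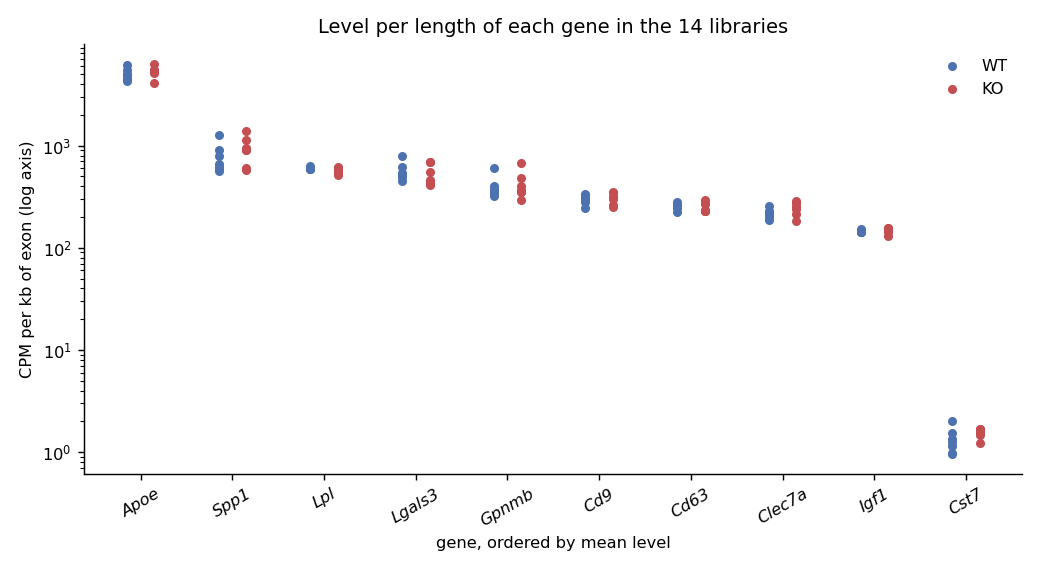
Level of each gene in CPM per kb of exon, on a log axis, with 1 point per library (blue, WT; red, KO; 7 each). Apoe sits above all others and Cst7 far below them, and within each gene the points of both genotypes overlap.

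None of the 10 transcripts was called as different between KO and WT. By the quasi-likelihood test of edgeR, with p-values adjusted by Benjamini-Hochberg for the whole table, 0 of 10 were called, against 3 of 15700 genes overall (0.0191%), and 0 had an unadjusted p under 0.05, against 3.37% of all genes. DESeq2 also called 0 of 10, with 1 gene, Lpl, at an unadjusted p under 0.05 (0.0388), as were 565 of 15700 genes in that fit. The estimate was higher in KO for 7 and lower for 3, with a median log2 fold change of 0.06, beside 0.00 over all tested genes. All estimates lay between -0.10 and 0.25, with adjusted p between 0.943 and 0.973, and the ranges of the genotypes overlapped for each gene. In these bulk samples, a different number of cells in such a state and a different amount of RNA of these genes per cell cannot be told apart.

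The genes of lipid handling were Apoe and Lpl, and positions are given on GRCm38. Apoe (ENSMUSG00000002985, chr7:19696109-19699188, minus strand) was at 8742, 11614 and 13627 CPM (lowest, median and highest) in KO and at 9224, 10623 and 13118 CPM in WT. The lowest and the highest of the 14 values were both KO libraries, and 6 of 7 KO libraries exceeded the WT median. Its log2 fold change was 0.10 ± 0.0931 (SE, n = 7 per genotype, adjusted p = 0.943), with a 95% interval of -0.10 to 0.30. The estimate for Apoe was 0.05 without KO 5 and 0.15 without KO 3. Lpl (ENSMUSG00000015568, chr8:68880491-68907448, plus strand), the lipase that releases fatty acids from lipoproteins, was at 5367, 5994 and 6413 CPM in KO and at 6155, 6296 and 6689 CPM in WT. It was the steadiest transcript of the set in WT, with a coefficient of variation of 2.74%, and 4 of 7 KO libraries lay below every WT library. The log2 fold change of -0.07 ± 0.0408 (adjusted p = 0.943, exact permutation p = 0.0559) was small, and its interval of -0.16 to 0.01 contained 0.

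Spp1 and Igf1 encode secreted factors. Spp1 (ENSMUSG00000029304, chr5:104435118-104441050, plus strand) had coefficients of variation of 30.5% in KO and 32.7% in WT, beside 30.8% and 25.0% for Gpnmb. It was at 955, 1501 and 2272 CPM in KO and at 924, 1101 and 2098 CPM in WT, and the highest library of each genotype was its number 1. The log2 fold change of 0.25 ± 0.214 (adjusted p = 0.943) was the largest of the set, but its interval ran from -0.20 to 0.71, and the estimate was 0.13 without KO 1 and 0.42 without WT 1. Of the exonic bases of Spp1, 309 are shared with a predicted gene on the same strand, Gm42793, which had 2177 counts over all libraries. Igf1 (ENSMUSG00000020053, chr10:87858265-87937042, plus strand), insulin-like growth factor 1, a trophic factor for neurons and myelinating cells, held a narrow range of 1286, 1489 and 1565 CPM in KO and 1401, 1429 and 1527 CPM in WT. Its log2 fold change was 0.03 ± 0.0398 (adjusted p = 0.945), and the interval of -0.05 to 0.12 corresponds to 0.964-fold to 1.08-fold of WT.

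Clec7a (ENSMUSG00000079293, chr6:129461591-129472779, minus strand) encodes Dectin-1, a surface receptor for β-glucans that signals through the kinase SYK, and is listed as a polymorphic pseudogene in the annotation. It was at 487, 655 and 752 CPM in KO and at 494, 569 and 680 CPM in WT. Of the 7 KO libraries, 5 exceeded the WT median, 2 were above every WT library and 1 was below all of them. The log2 fold change was 0.17 ± 0.092 (adjusted p = 0.943, exact permutation p = 0.138), with an interval of -0.03 to 0.36. With same-numbered libraries as blocks (below), the estimate was 0.16 ± 0.0424 (edgeR, adjusted p = 0.754).

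Gpnmb, Cd63, Cd9, Cst7 and Lgals3 encode proteins of lysosomes, endosomes and the cell surface. Gpnmb (ENSMUSG00000029816, chr6:49036546-49070929, plus strand), a transmembrane glycoprotein found on lysosomes and at the plasma membrane, was at 1935, 2410 and 4438 CPM in KO and at 2087, 2333 and 3976 CPM in WT. Each genotype had its highest value in the library numbered 1, and WT 1 stood apart from the other WT libraries. The log2 fold change of 0.09 ± 0.180 (adjusted p = 0.968) turned to -0.07 without KO 1. The tetraspanin Cd63 (ENSMUSG00000025351, chr10:128900989-128912822, plus strand), a marker of late endosomes, was at 837, 866 and 1094 CPM in KO and at 821, 931 and 1037 CPM in WT, a log2 fold change of -0.02 ± 0.0675 (adjusted p = 0.973). That estimate was 0.00 without WT 1, just above 0. The tetraspanin Cd9 (ENSMUSG00000030342, chr6:125460266-125494791, minus strand), which organises receptors at the cell surface, was at 517, 633 and 726 CPM in KO and at 502, 617 and 684 CPM in WT, and its log2 fold change of 0.03 ± 0.0831 (adjusted p = 0.972) was slightly below 0 when KO 1, KO 4 or WT 5 was left out. Of its exonic bases, 218 overlap Gm26728 on the opposite strand, which had 223 counts over all libraries, and without a known strand setting such reads cannot be told apart.

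Lgals3 (ENSMUSG00000050335, chr14:47367751-47386160, plus strand), galectin-3, a lectin that binds sugars on damaged lysosomes and at the cell surface, was at 773, 859 and 1298 CPM in KO and at 837, 979 and 1471 CPM in WT. Of the 7 KO libraries, 3 exceeded the WT median and 3 were below every WT library. The log2 fold change was -0.10 ± 0.147 (adjusted p = 0.949), and it shrank to 0.00 without WT 1. The estimate was -0.18 without KO 1 and also without KO 4. Cst7 (ENSMUSG00000068129, chr2:150570415-150578944, plus strand) was at 1.21, 1.57 and 1.68 CPM in KO and at 0.944, 1.23 and 2.01 CPM in WT. In KO, 6 of 7 libraries exceeded the WT median, but WT 7 exceeded every KO library, and the log2 fold change of 0.23 ± 0.161 (adjusted p = 0.943, exact permutation p = 0.124) had an interval of -0.12 to 0.57. The estimate for Cst7 was 0.36 without WT 7 and 0.16 without WT 5.

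**Figure D2:**
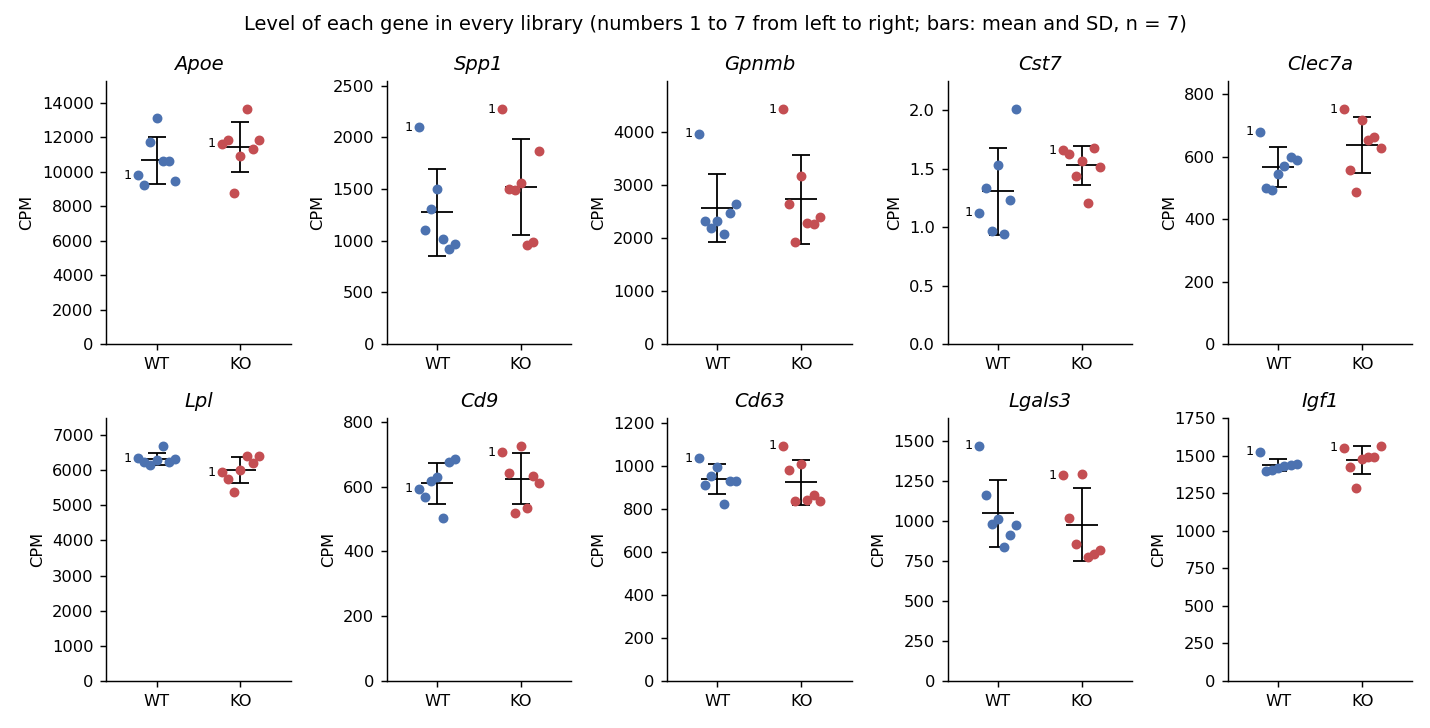
CPM of each gene in every library (points, numbers 1 to 7 of each genotype from left to right, with number 1 marked) and the mean with SD (n = 7; axes start at 0). Number 1 is the highest library of both genotypes for Spp1, Gpnmb, Clec7a and Cd63, and Lpl and Igf1 vary least.

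**Figure D3:**
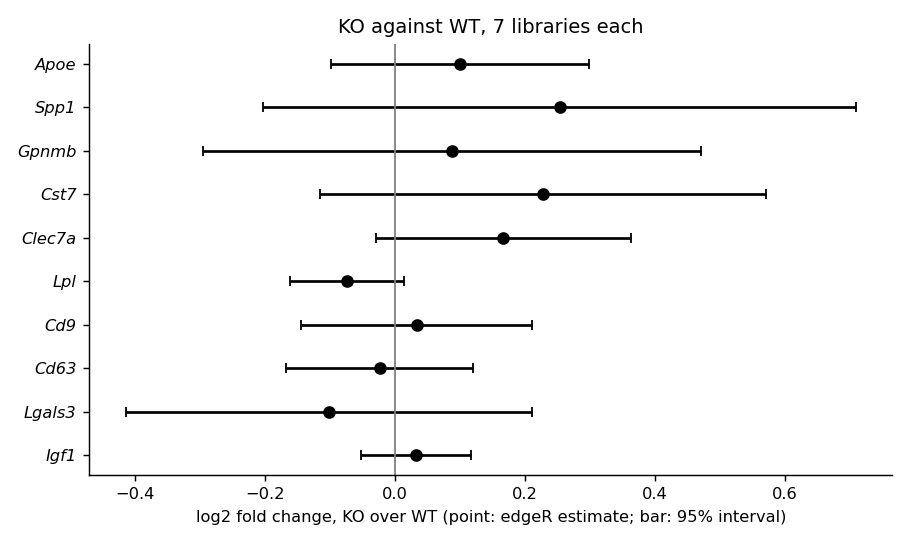
Log2 fold change of KO over WT for each gene (point, edgeR estimate; bar, 95% interval; 7 libraries per genotype). Every interval contains 0, and those of Spp1 and Gpnmb are the widest.

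Several of the transcripts rose and fell together across cultures of the same genotype. After each genotype was centred on its own mean log2 CPM, 36 of the 45 pairs of genes had a positive Pearson r over the 14 libraries, with a median of 0.311 and a range of -0.285 to 0.863. By permutation within genotype, 13 pairs had an unadjusted p under 0.05 and 5 passed after adjustment over the 45 pairs. These permutations moved KO and WT libraries separately and took the 14 libraries as independent. Same-numbered KO and WT libraries had r of at least 0.6 for 7 of these genes (below), though none passed adjustment. Where such libraries share deviations, the p-values may be too small, here and in the later permutation tests over the 14 libraries. An r of at least 0.8 was seen for 4 of the 45 pairs (8.89%), against 0.983% of all pairs among 12641 genes with a mean of at least 1 CPM. At r of at least 0.5 it was 15 of the 45 (33.3%), against 10.3% of all pairs. The mean r over all pairs was 0.00794, and these background genes were not matched for level. Genes measured in the same libraries are not independent, and these shares are a description.

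The pairs among Gpnmb, Cd63 and Lgals3 had the highest r but for Clec7a with Igf1, which was level with them. Cd63 with Lgals3 had r = 0.863 (permutation p = 0.00035, adjusted p = 0.00787) and Spearman's rho = 0.846 (permutation p = 0.00109, adjusted p = 0.0268). Gpnmb with Lgals3 had r = 0.851 (permutation p = 0.00096, adjusted p = 0.0108) and rho = 0.785 (permutation p = 0.00291, adjusted p = 0.0327). Gpnmb with Cd63 had r = 0.842 (permutation p = 0.00016, adjusted p = 0.0072) and rho = 0.842 (permutation p = 0.00119, adjusted p = 0.0268). In each of these pairs the relation was positive in both genotypes, with r of 0.858 to 0.944 within KO and of 0.694 to 0.839 within WT. Spp1 had r = 0.713 with Lgals3 (permutation p = 0.00819, adjusted p = 0.0526), 0.654 with Gpnmb and 0.644 with Cd63, and none of the 3 passed the adjustment. Without the libraries numbered 1, these were 0.426, 0.108 and 0.375. Cd9 with Cd63 had r = 0.723 (permutation p = 0.00812, adjusted p = 0.0526), and 0.782 without the libraries numbered 1, and did not pass either.

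Clec7a and Igf1 made up a second pair, with r = 0.841 (permutation p = 0.0007, adjusted p = 0.0105) and rho = 0.758 (permutation p = 0.00185, adjusted p = 0.0277), and with r = 0.844 within KO and 0.925 within WT. Gpnmb joined both, through Clec7a, at r = 0.765 (permutation p = 0.00261, adjusted p = 0.0235), though rho = 0.618 did not pass (permutation p = 0.0263, adjusted p = 0.118). Igf1 with Lpl had r = 0.741 (permutation p = 0.0156, adjusted p = 0.0735) and rho = 0.767 (permutation p = 0.00378, adjusted p = 0.034), with r = 0.845 within KO and 0.173 within WT. That r was 0.403 without KO 3, and 0.254 without KO 3 and KO 7, the 2 libraries farthest from the median of Lpl. Apoe and Lpl, the most abundant transcripts by CPM, had values near or below 0 with most of the lysosomal genes, such as -0.21 for Apoe with Lgals3 and -0.28 for Lpl with Cd63, and neither passed. Without KO 3, these 2 values were -0.40 and -0.76.

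The calls depended on which libraries entered. The libraries numbered 1 held high levels of Spp1, Gpnmb, Lgals3, Clec7a and Cd63 in both genotypes, and without them 2 pairs passed, Gpnmb with Cd9 at r = 0.844 and Lpl with Igf1 at r = 0.879 (permutation, adjusted p = 0.036 and 0.0439). Without the 2 libraries farthest from the median of the first gene of a pair, r was 0.741 for Gpnmb with Cd63, 0.807 for Cd63 with Lgals3, 0.708 for Gpnmb with Lgals3, 0.620 for Gpnmb with Clec7a and 0.599 for Clec7a with Igf1, and none of the 5 passed the adjustment (permutation, adjusted p between 0.147 and 0.353). The pair that then passed was Gpnmb with Cd9, at r = 0.844 (permutation, adjusted p = 0.036). For pairs with Gpnmb as the first gene, the 2 farthest libraries were KO 1 and WT 1. Their r values therefore repeat those without the libraries numbered 1 and are not a second check. Without KO 1 alone, 2 pairs passed, without KO 3 there were 3, and without KO 7 there were 9. When same-numbered KO and WT libraries were treated as blocks (below), 0 of the 45 pairs passed. The r was then 0.287 for Cd63 with Lgals3, 0.524 for Clec7a with Igf1 and 0.795 to 0.888 for the other 3 pairs.

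**Figure D4:**
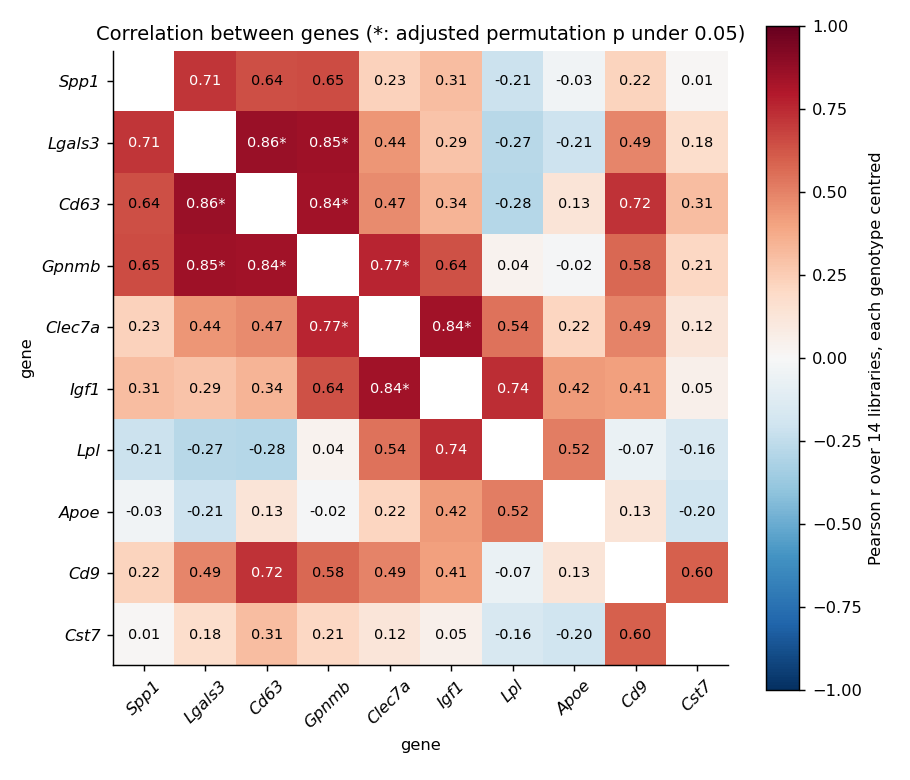
Pearson r between the 10 genes over 14 libraries after centring each genotype on its mean (colour from blue, -1, to red, 1; values printed; * marks an adjusted permutation p under 0.05). The 5 marked pairs join Lgals3, Cd63 and Gpnmb with each other, Gpnmb with Clec7a, and Clec7a with Igf1, and no pair of Spp1, Lpl, Apoe, Cd9 or Cst7 is marked.

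Across 12641 genes, no gene of the set was among the 3 nearest of another by Pearson r. The closest were Clec7a and Igf1, since Clec7a ranked 18 among the genes most like Igf1 and Igf1 ranked 27 among those most like Clec7a. For Lgals3 the nearest were Atp6v1a, a subunit of the proton pump that acidifies lysosomes (r = 0.980), Anpep and Dnase1l1. For Cd63 they were Pld3, a lysosomal exonuclease (r = 0.972), Psap, the precursor of the saposins that help degrade sphingolipids (r = 0.970), and Actr1b. Gpnmb was nearest to Ipo5, Fam219a and Ttyh2 (r = 0.953 to 0.962), and Spp1 to Ptprk, Slc25a24 and Ift43 (r = 0.895 to 0.939). Apoe was nearest to Tpbgl, to Abcg1, a transporter that exports cholesterol (r = 0.913), and to Alad. Clec7a was nearest to Fubp1, Arl5b and Ttl, Igf1 to Rasa1, Edem3 and Prrg1, Lpl to Tube1 and Htatip2, and Cd9 to Sowahc, Csnk1e and Minar1, all at r between 0.882 and 0.960. Cst7, with its few counts, reached at most 0.814, with Rabl3, followed by Tmed10 and Grin3b. The nearest genes are the highest of 12640 values of r for each gene, and such a choice alone gives high values. Whether any kind of gene was frequent among them was not tested.

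Genes of resting microglia moved against part of the set. The summed level of 17 homeostatic genes, among them Csf1r, Cx3cr1 and P2ry12, was 9276 to 11247 CPM in KO and 8562 to 10790 CPM in WT, and was lowest in the library numbered 1 of each genotype. This relation was examined after the values had been seen, for 10 genes. Lgals3 had r = -0.903 with that sum (permutation p = 0.00011, adjusted p = 0.0011) and rho = -0.829 (permutation p = 0.00076, adjusted p = 0.0076), and r was still -0.805 without the libraries numbered 1. Spp1 had r = -0.848 (permutation p = 0.00045, adjusted p = 0.00225) and rho = -0.789 (permutation p = 0.00242, adjusted p = 0.0121), and r was -0.657 without them. Cd63 at -0.707 and Gpnmb at -0.754 also passed by r (permutation, adjusted p = 0.0163 for each) but not by rho (adjusted p = 0.114 and 0.250), and without the libraries numbered 1 Cd63 was at -0.471 and Gpnmb at -0.228. For Apoe, Cst7, Clec7a, Lpl, Cd9 and Igf1, r was between -0.327 and 0.265 and did not pass. With same-numbered libraries as blocks (below), none of the 10 passed (exact permutation, adjusted p of 0.753 or more). The r was then -0.496 for Lgals3, -0.346 for Spp1 and -0.0036 for Gpnmb, and that of Cd63 turned to 0.558.

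Markers of other cells and the depth were set beside the 10 genes in 30 further relations, adjusted together. By r, 1 of these passed: Cd63 had r = -0.803 with the summed markers of border macrophages (permutation p = 0.00134, adjusted p = 0.0402) and rho = -0.802 (permutation p = 0.00268, adjusted p = 0.0402), with r = -0.776 within KO and -0.864 within WT. Without KO 4 and KO 5, the libraries farthest from the median of the sum, r was -0.792 and no relation passed. With same-numbered libraries as blocks, r was -0.913 and again no relation passed. Lgals3 passed by rho alone, at -0.833 (permutation p = 0.00098, adjusted p = 0.0294), with r = -0.71 (permutation p = 0.0087, adjusted p = 0.114). Within KO its r was -0.902 and passed (exact permutation, adjusted p = 0.0179), and within WT it was -0.423 and did not (adjusted p = 0.699), and the difference between the genotypes was not tested. The sum was 3328 to 5160 CPM in KO and 3499 to 5100 CPM in WT and was made up mostly of Stab1, at 3215 CPM in KO and 3255 CPM in WT on average, while Lyve1 averaged 0.0486 and 0.0355 CPM and Cd163 and Cbr2 were below 1 CPM on average. The part of these cells in the levels of Cd63 and Lgals3 was not tested. With the astrocyte sum, r lay between -0.238 and 0.441, and with the number of counted reads between -0.384 and 0.131 (permutation, adjusted p of 0.508 or more). With the astrocyte level as a covariate, 0 of 10 genes were called between genotypes.

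**Figure D5:**
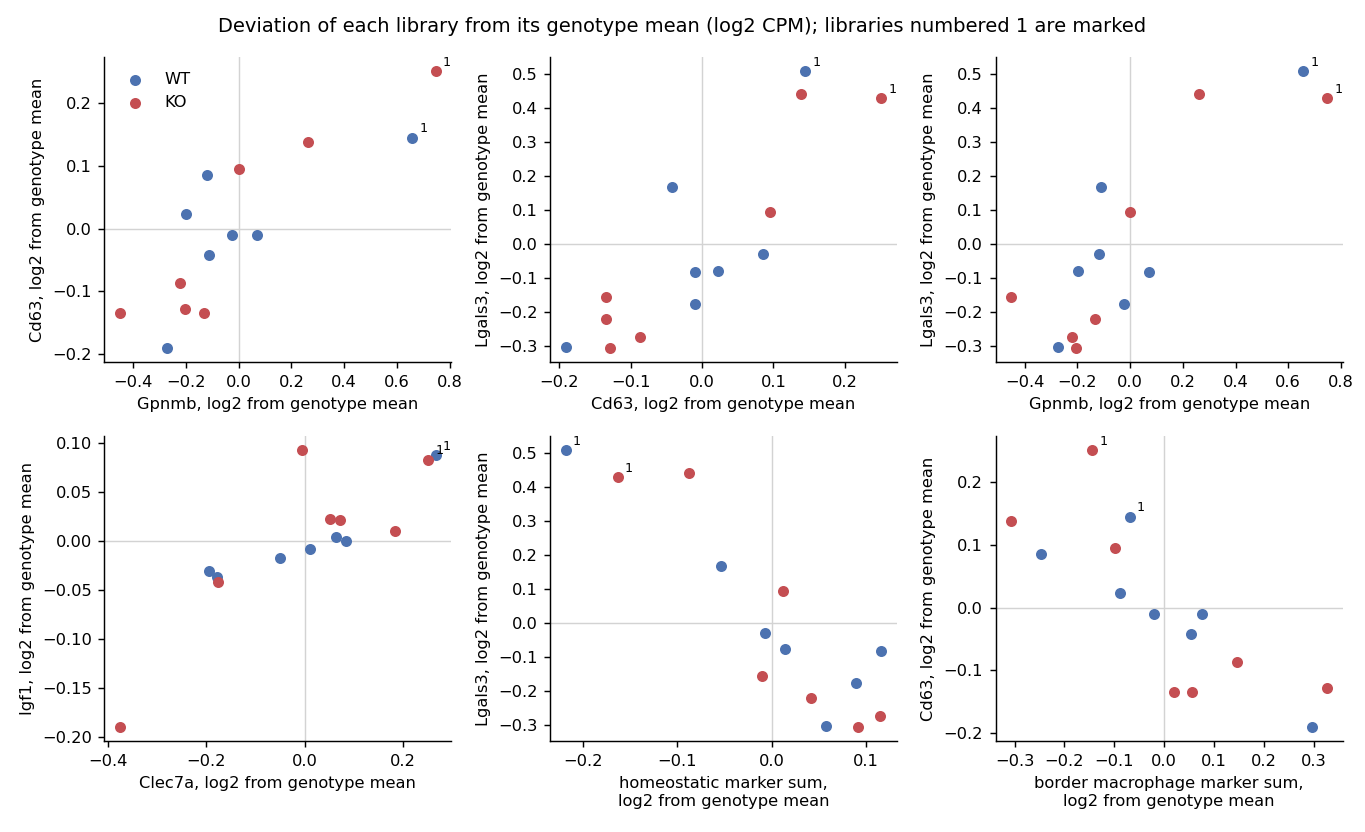
Log2 deviation of each library from the mean of its genotype, for 4 pairs of genes and for Lgals3 and Cd63 against summed CPM of homeostatic and border macrophage markers (blue, WT; red, KO; 14 points per panel; number 1 marked). Gpnmb, Cd63 and Lgals3 rise together, Clec7a rises with Igf1 (lowest in KO 3), and the 2 panels of marker sums slope downward.

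Other genes of the disease-associated state, 33 of 34 of which were matched, were tested in the same fit. edgeR called 0 of 33, and 0 had an unadjusted p under 0.05. DESeq2 called 0 as well. They were higher in KO in 22 cases and lower in 11, with a median log2 fold change of 0.03. The 3 highest per length were Ctsd and Ctsb, lysosomal proteases, at 4907 and 3550 CPM per kb, and Lyz2, lysozyme, at 4767 CPM per kb. The smallest p-values belonged to Cd52, a surface glycoprotein (log2 fold change 0.19 ± 0.093, unadjusted p = 0.058), and to Cd36, a scavenger receptor for lipids (-0.20 ± 0.112, unadjusted p = 0.0917), followed by Npc2 at 0.05, Plin2 at -0.12 and B2m at 0.10, and the adjusted p of each was 0.943. Trem2 was at 1006 ± 64 CPM in KO and 990 ± 43.3 CPM in WT (SD, n = 7), and its signalling partner Tyrobp at 749 ± 41.8 and 734 ± 23.5 CPM.

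Receptors, processing enzymes and regulators of the 10 genes were listed as well, and 36 of 37 were tested, Gpihbp1, the capillary anchor of Lpl, having almost no counts. edgeR called 0 of 36, 1 had an unadjusted p under 0.05, and DESeq2 called 0, with 18 higher and 18 lower in KO and a median log2 fold change of 0.02. The 1 gene was Tfec, a transcription factor of the MITF family, at 25.5 ± 1.95 CPM in KO and 22.9 ± 1.51 CPM in WT (log2 fold change 0.15 ± 0.0541, unadjusted p = 0.0124, adjusted p = 0.943). Angptl4, an inhibitor of Lpl, had a log2 fold change of -0.61 ± 0.292 from only 3.95 and 6.01 CPM (unadjusted p = 0.0558), and Cd82, Ctsh and Tfe3 lay between 0.06 and 0.09. Highest per length were Lgmn, a lysosomal protease, at 1411 CPM per kb, Fcer1g, a signalling adaptor, at 582, and Ctsl at 346 CPM per kb. Among receptors, Lrp1, which takes up Apoe, was at 3713 ± 305 CPM in KO and 3725 ± 532 CPM in WT, and Syk, the kinase of Dectin-1, at 185 ± 16.4 and 177 ± 13.2 CPM.

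Of the 17 homeostatic genes, 0 were called by edgeR, 0 had an unadjusted p under 0.05 and DESeq2 called 0, with 13 higher and 4 lower in KO and a median log2 fold change of 0.04. Cst3, a protease inhibitor (1014 CPM per kb), and Csf1r, the receptor that keeps microglia alive (464 CPM per kb), were among the 3 highest per length. Csf1r had the smallest p (log2 fold change 0.15 ± 0.0855, unadjusted p = 0.0987), followed by Mertk at 0.11, Siglech at 0.26, Sparc at -0.31 and P2ry13 at 0.13, and the adjusted p of each was 0.943. Their summed level did not differ between the genotypes beyond its spread (exact permutation p = 0.309).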

How the data were processed

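The count table holds whole-number counts that the authors deposited with no normalization, for 14 libraries and 49315 Ensembl genes. Per the labels, reads were trimmed with Trimmomatic 0.36, mapped to GRCm38 with STAR 2.5.2b and assigned to genes with featureCounts of Subread 1.5.2. The annotation release and strand setting are not given in the sources used here, nor is the batch of each library, which the authors modeled. Names, positions and exon lengths came from GENCODE M21, which matched 49056 genes.

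Low counts were removed by filterByExpr (at least 10 counts, total of at least 15). After TMM scaling, KO was tested against WT in edgeR 4.0.16 (R 4.3.3) by its two-sided quasi-likelihood test, and genes with an adjusted p under 0.05 were called. DESeq2 1.42.0 was an alternative. The scripts were tested on simulated data. CPM use TMM-scaled library sizes, and log2 CPM a prior count of 1. Exact permutation tests ran over the 3432 assignments of libraries to genotypes, and correlations over 100000 permutations within genotype (Python 3.11.15, numpy 2.4.6). No 2 libraries agreed within sampling noise (lowest chi-square of 6.36 per degree of freedom over 91 pairs).

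The genes and lists were chosen with earlier results of these data known. Beside the 10 genes, the text names Timp2, from each list of related genes any called, the 5 with the smallest p and the 3 highest per length, and the 3 nearest genes of each, except 2 genes that are not reported here. Trem2, Tyrobp, Lrp1, Syk and genes quoted from the marker lists were chosen after their values were seen.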

Additional observations from a re-analysis of the deposited data

Results flagged for a closer look

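In 3 of the 20 groups of 7 libraries, 1 library lay far from the others, with a gap to its nearest neighbour, as a share of the whole range of the group, above Dixon's 95% critical value for 7 libraries. Chance gives such a gap in about 1 in 20 groups. WT 1 was the highest WT library for Gpnmb, at 3976 CPM against 2647 CPM in the next, a gap of 0.631 of the range. WT 1 was also the highest for Igf1, with a gap of 0.667 of a range from 1401 to 1527 CPM. WT 5 was the highest for Lpl, at 6689 CPM, with a gap of 0.640 of the range.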

How the results depend on the processing

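In each alternative run, 0 of the 10 genes were called, with log2 fold changes within -0.18 to 0.42. DESeq2 called 15 genes in all and DESeq2 with the replicate block 26, against 3, and the cause was not tested. Among the 26 were 1 gene of the border macrophage list, F13a1, and 1 of the neuron list, Snap25. Leaving out 1 library gave 3 to 4 calls. Directions reversed for Gpnmb without KO 1 (-0.0729, the lowest value over single libraries left out, the highest being 0.226), for Cd9 (-0.0089 to 0.0719, and -0.0073 without both libraries numbered 1) and for Cd63 (-0.0714 to 0.0031, and 0.0053 with the astrocyte level as a covariate). Of 45 pairs of genes, 5 passed, against 0 in KO libraries only, 1 in WT libraries only, with 7 libraries in each, 1 without the 2 farthest libraries, 2 without both libraries numbered 1 and 2 to 9 without single libraries. Of 30 relations with culture measures, 1 passed, against 1 in KO libraries only (Lgals3, not Cd63), 1 without both libraries numbered 1, 0 in WT libraries only and 0 without the 2 farthest.

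Same-numbered KO and WT libraries came from different pools, and their deviations over all genes correlated at -0.196 to 0.743, over 0.1 in 3 of 7 pairs, so the numbers were not taken as pairs. Each of 1 KO and 2 WT libraries correlated best with its own number. With the replicate block, edgeR called 3 genes, 0 of the 10, and 0 of the 45 pairs, 0 of the 30 relations and 0 of the 10 with the homeostatic sum passed. The r of Cd63 with Lgals3 was then 0.287, of Clec7a with Igf1 0.524, of Gpnmb with Lgals3 0.795, with Cd63 0.80 and with Clec7a 0.888, of Cd9 with Cd63 0.960, of Spp1 with Gpnmb, Lgals3 and Cd63 -0.397, -0.399 and -0.350, and of Cd63 with border macrophage markers -0.913. With the homeostatic sum, r was -0.496 for Lgals3, -0.346 for Spp1 and -0.0036 for Gpnmb, and Cd63 turned from -0.707 to 0.558 (adjusted p of 0.753 or more by exact permutation over 7 differences). Unadjusted, 3 of the 10 were under 0.05 in edgeR with the block (Clec7a 0.0043, Lpl 0.0438, Spp1 0.0469), among 921 of 15700 genes. With DESeq2 and the block, the smallest adjusted p of the 10 was 0.134, for Clec7a. The alternative without the libraries numbered 1 was added after seeing the data. Cst7, at 43 to 87 counts per library, is the gene that depth limits most.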

Other observations

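KO and WT libraries that carry the same number were also compared for each gene, after the values had been seen. Over the 7 numbers, the Pearson r between the KO and the WT library was 0.817 for Clec7a, 0.816 for Gpnmb, 0.761 for Lgals3, 0.693 for Spp1, 0.673 for Cd63, 0.642 for Lpl and 0.617 for Igf1 (exact permutation, adjusted p of 0.174 or more over 10 genes). It was 0.416 for Cst7, 0.326 for Cd9 and -0.463 for Apoe. Spearman's rho reached 0.893 for Lgals3 and for Igf1 (exact permutation p = 0.0123, adjusted p = 0.0615 for each). Without number 1, Gpnmb was at r = 0.197, Spp1 at 0.409 and Cd63 at 0.442. Clec7a was then at 0.752, Igf1 at 0.765, Lpl at 0.647 and Lgals3 at 0.616. With number 1 included, an r of at least 0.6 was seen for 7 of the 10 genes, against 19.6% of all 15700 tested genes, whose median was 0.244.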
